A study of Mus musculus with 19 samples.

Results

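The miRNAs miR-296 and miR-298 are an imprinted pair near the Gnas gene on mouse chromosome 2, and 4 mature arms of them, mmu-miR-296-5p, mmu-miR-296-3p, mmu-miR-298-5p and mmu-miR-298-3p, are among the 1079 mouse miRNAs on the array. All arms with either name in the scanner files were taken. The pair was selected on values of these arrays: miR-298-5p was lower in the nucleus accumbens of high-active mice, while miR-296-5p leaned higher in their soleus. The strain differences in those tissues are therefore given as a description with no test.

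The study asked whether brain and muscle miRNAs differ between inbred mouse strains of unlike voluntary wheel running. The high-active strain was C57L/J, the low-active strain C3H/HeJ, and all mice on arrays were male. All mice were 8 weeks old at the start, were housed alone with a locked wheel for 1 week with no treatment, and were 9 weeks old at harvest. RNA of the nucleus accumbens (a forebrain region of motivation and reward), the soleus (a slow-twitch leg muscle) and the extensor digitorum longus (EDL, a fast-twitch leg muscle) was hybridised to 19 single-dye arrays. High-active mice gave 4 arrays of nucleus accumbens, 4 of soleus and 2 of EDL, and low-active mice gave 3, 2 and 4. The arrays came from 8 mice, 4 of each strain, so that tissues share animals, and each strain is 1 inbred genotype, so that activity and every other strain trait cannot be told apart.

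An array has no read depth, and the number of arrays limits the precision. Between 237 and 388 mouse miRNAs were detected per array, fewest on the low-active EDL array of mouse 195. All 5 miRNAs of a forebrain neuron list were well above background on every nucleus accumbens array, and the summed signal of a list of 6 muscle miRNAs was 18.7 to 19.6 (log2) in muscle against 8.75 to 9.08 on 6 nucleus accumbens arrays. On the remaining nucleus accumbens array, low-active mouse 197, it was 11.05.

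A miRNA is cut from a hairpin in its transcript, and 1 arm or both can be loaded into the Argonaute complex, where bases 2 to 8, the seed, pair with target mRNAs. The genes of miR-296 and miR-298 lie close together on the strand opposite Gnas, the gene of the stimulatory G protein subunit, and in the mouse they are expressed from the paternal allele. miR-298 is known for repressing Bace1, the enzyme that starts amyloid processing in neurons, and miR-296 for repressing Hgs in blood vessel cells, which raises growth factor receptor levels.

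In RefSeq on GRCm38.p6 all 4 arms were found by name. The hairpin of miR-298 covers chr2:174267504-174267585 and that of miR-296 chr2:174267047-174267125, both on the minus strand and 378 bases apart. Gnas runs on the plus strand from 174284320 to 174346744, and the antisense transcript Gnasas1 from 174281237 to 174295436, 13651 bases from the nearer hairpin. The hairpins are shown 5′ to 3′ with both mature arms in capitals, because the arms of each behaved differently on the arrays.

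Mir298: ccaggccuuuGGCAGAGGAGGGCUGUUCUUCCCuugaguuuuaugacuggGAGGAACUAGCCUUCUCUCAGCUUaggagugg

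Mir296: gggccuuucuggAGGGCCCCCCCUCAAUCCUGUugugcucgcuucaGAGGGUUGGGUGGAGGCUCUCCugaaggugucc

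The 4 mature arms follow with the seed in capitals. They are the members whose values are given here, and no seed is shared among them.

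mmu-miR-296-5p: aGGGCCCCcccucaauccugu

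mmu-miR-296-3p: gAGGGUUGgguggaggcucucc

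mmu-miR-298-5p: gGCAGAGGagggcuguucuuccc

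mmu-miR-298-3p: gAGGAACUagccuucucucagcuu

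No other entry among the 1679 mature mouse miRNAs of that table has any of these 4 seeds. The arms are 21 to 24 bases long, and G and C make up 66.7% of miR-296-5p, 68.2% of miR-296-3p, 65.2% of miR-298-5p and 50.0% of miR-298-3p.

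In both hairpins the 5p arm alone gave signal over background. miR-296-5p was well above background on 18 of 19 arrays and miR-298-5p on 4, all of them from the nucleus accumbens. miR-296-3p, with 4 probes at intensities of -6.68 to 3.60, and miR-298-3p, with 2 probes at -4.16 to -0.60, were not well above background on any of the 19 arrays. Intensities here are in scanner units after the software's own background subtraction, so that values near 0 mean no signal over background. Since probes can differ in how well they bind, the arms were not compared with each other in level.

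miR-296-5p was several times higher in the nucleus accumbens than in either muscle. Each array holds a whole tissue, in which fewer cells of a type and less RNA per cell cannot be told apart. For the comparison of tissues, arrays were scaled to a common 75th percentile and signals are given as log2 of scaled intensity. In the nucleus accumbens of high-active mice miR-296-5p was at 7.40, 7.45, 7.61 and 7.10 for mice 223, 224, 225 and 227, and in low-active mice at 7.99, 8.01 and 8.06 for mice 194, 195 and 197. In the soleus it was at 5.49, 5.19, 5.68 and 5.64 for the same high-active mice and at 4.46 and 4.74 for low-active mice 194 and 195. In the EDL it was at 5.19 and 5.76 for high-active mice 225 and 227, and at 5.04, 5.59, 5.30 and 4.67 for low-active mice 194, 195, 196 and 197. The lowest of 7 nucleus accumbens arrays, at 7.10, was above the highest of 12 muscle arrays, at 5.76, while soleus and EDL arrays overlapped. The array of mouse 195 in the EDL was the 1 on which miR-296-5p was not well above background.

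**Figure D1:**
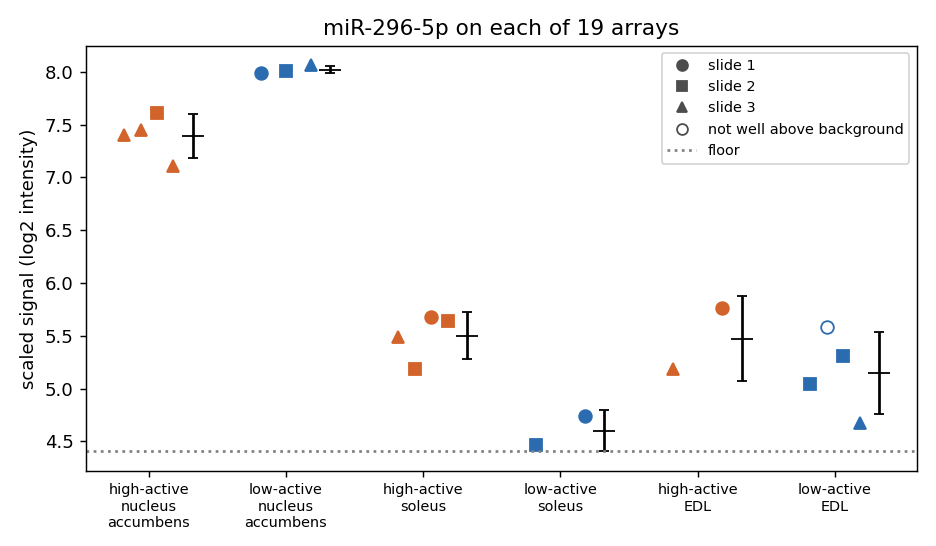
Scaled log2 signal of miR-296-5p (vertical axis) on each of 19 arrays in the 6 groups of strain and tissue. Each point is 1 mouse, its shape the slide, an open point not well above background, and the bar beside a group its mean and SD. All 7 nucleus accumbens arrays lie above 7, and all 12 muscle arrays lie under 6.

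By limma over the 19 arrays, with mouse as a random block and both strains weighted equally, miR-296-5p was higher in the nucleus accumbens than in the soleus by 2.66 (standard error 0.146; adjusted p = 6.39e-11), or 6.34-fold. Against the EDL it was higher by 2.40 (standard error 0.147; adjusted p = 2.86e-10), or 5.28-fold. Most miRNAs differed between brain and muscle: 80.5% of 477 tested miRNAs passed the adjusted p threshold of 0.05 against the soleus and 77.1% against the EDL, so that the size of the difference says more than its call. In high-active mice alone the difference was 1.89 against the soleus and 1.93 against the EDL, and in low-active mice alone 3.44 and 2.87. These within-strain values share the strain differences that chose the pair, so they are a description with no test.

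Between the muscles no difference in miR-296-5p passed the test. The soleus mean was 5.05 and the EDL mean 5.31, a difference of -0.26 with a 95% interval of -0.60 to 0.07 (adjusted p = 0.341 by limma), in a comparison where 17.4% of miRNAs passed. Under quantile normalization the difference was -0.37 and did pass (adjusted p = 0.042). The difference was -0.12 without the EDL array of high-active mouse 227 and -0.42 without that of mouse 225, and it was 0.04 in high-active and -0.56 in low-active mice alone. The order of group means was low-active nucleus accumbens at 8.02 ± 0.04 (SD, n = 3), high-active nucleus accumbens at 7.39 ± 0.21 (SD, n = 4), high-active soleus at 5.50 ± 0.22 (SD, n = 4), high-active EDL at 5.47 ± 0.41 (SD, n = 2), low-active EDL at 5.15 ± 0.39 (SD, n = 4) and low-active soleus at 4.60 ± 0.20 (SD, n = 2). The means of high-active soleus, high-active EDL and low-active EDL differed by less than the SD of either EDL group.

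miR-298-5p had signal over background in the nucleus accumbens and in no muscle array. It has 4 probes of 10 spots each, and only A_54_P2435 was ever well above background. Before any scaling, the mean intensity of A_54_P2435 in the nucleus accumbens was 27.2, 35.2, 24.3 and 13.3 units in high-active mice 223, 224, 225 and 227, and 39.8, 32.2 and 62.8 in low-active mice 194, 195 and 197. In the soleus it was 0.48 to 3.62 units, and in the EDL 0.60 to 4.86. The dimmest nucleus accumbens array thus stood above the brightest of 12 muscle arrays. It counted as well above background on the array of mouse 224 alone among the 4 high-active and on all 3 low-active arrays, where over 50% of its spots had to pass the software's limit. On the array of mouse 223 exactly 50% passed, which left it just under that limit.

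**Figure D2:**
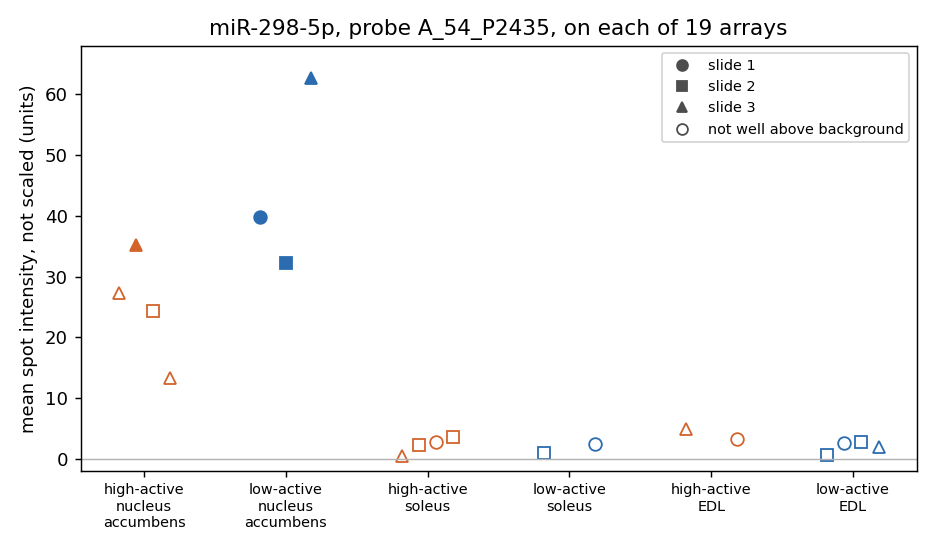
Mean intensity of A_54_P2435, the brightest probe of miR-298-5p, in unscaled scanner units (vertical axis) on each of 19 arrays in the 6 groups. Filled points are well above background and shapes mark slides. All 12 muscle arrays lie at 4.86 units or less, and the 7 nucleus accumbens arrays lie between 13.3 and 62.8.

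Since miR-298-5p was well above background in neither muscle, its difference from them has only a lower limit. The limit sets the mean of all 7 nucleus accumbens arrays, each at its own scaled signal with no floor, against the lowest signal that counted as detected on each muscle array. Averaged over both strains with equal weight, its level was at least 1.25-fold higher than in the soleus and at least 1.16-fold higher than in the EDL. Of those 7 nucleus accumbens arrays, 4 were well above background. The low-active values that raise this mean took part in the choice of the pair. The limit therefore describes the mean of both strains and is not a limit for high-active mice alone. It passed the filter on low values through the nucleus accumbens alone, the tissue where it is high, so no p is given for it. In high-active mice alone, where 3 of the 4 nucleus accumbens arrays were at the floor of the scale, the floored log2 signals differed by 0.08 and 0.07, and in low-active mice alone by 1.05 and 1.06.

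In the nucleus accumbens both detected arms were lower in high-active mice on the scaled signal. Scaled within this tissue, miR-298-5p was at 4.60, 4.88, 4.70 and 4.60 in high-active mice 223, 224, 225 and 227, with mice 223 and 227 at the floor, and at 5.30, 5.69 and 5.97 in low-active mice 194, 195 and 197. The means of 4.70 ± 0.13 (SD, n = 4) and 5.65 ± 0.34 (SD, n = 3) differed by -0.95. Since 2 of the 4 high-active arrays were at the floor and 1 was well above background, this difference depends on where the floor was set, and a floor at 1 unit gave -1.25. In the same order of mice, miR-296-5p was at 7.52, 7.61, 7.92 and 7.39 in the high-active mice. In the low-active mice it was at 8.11, 8.28 and 8.22, and the means differed by -0.59. Among all 386 miRNAs compared there, 6.22% passed the limma test, from which nothing is read for these members, since this contrast chose them. Within slide 3 the difference was -1.27 for miR-298-5p and -0.72 for miR-296-5p, and within slide 2, with 1 array of each strain, -0.98 and -0.36.

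Without scaling these values were smaller. Unscaled, miR-296-5p intensities were 158 to 274 units in high-active and 194 to 299 in low-active mice, which overlapped, and the difference was -0.21. For miR-298-5p the unscaled intensities above also overlapped, by mouse 224 at 35.2 over mouse 195 at 32.2, and the difference was -0.66. Dropping the scaling also moved the median difference of all 386 miRNAs by 0.35, from -0.10 to 0.25. Relative to that median, the difference of miR-296-5p was -0.49 with scaling and -0.46 without, and that of miR-298-5p -0.85 and -0.91. Over the 7 arrays the scaled signals of both arms had a Pearson correlation of 0.88, which is a description over arrays that share the strain groups and the scaling factor.

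Summed signals of some marker lists of other cells also differed between the strains in this tissue, and their part in the values of the members was not tested. Of 5 endocrine and neuroendocrine miRNAs (the miR-375 and miR-7 arms, abundant in hormone-secreting cells), 2 passed the limma test, miR-375-3p at -1.13 (adjusted p = 0.0162) and miR-7a-2-3p at -1.19 (adjusted p = 0.0214). Over all 386 miRNAs 6.22% passed. The high-active mean of miR-375-3p was 4.73, near the floor of 4.60, so the floor may limit its difference. In the endocrine list 4 miRNAs were lower in high-active mice and 1, miR-7a-1-3p, went the other way at 0.08. The endocrine list had a median of -1.11, and its summed signal was 10.6 to 11.6 in high-active and 12.0 to 12.5 in low-active mice. All 5 were detected on every low-active array, and 4 of the 5 on every high-active array. No miRNA of the other lists passed. The 2 tested red cell miRNAs had a median of -0.90 and sums of 10.8 to 12.2 against 11.9 to 13.6, which overlapped. The 3 tested muscle miRNAs had a median of -0.76, but apart from the array of mouse 197 at 11.05 the low-active sums were 8.75 and 9.02, against 8.86 to 9.08 in high-active mice. The 6 tested epithelial miRNAs had a median of 3.23, with sums of 7.89 to 14.3 against 7.37 to 12.4. Neuron miRNAs had a median difference of 0.16 and sums of 16.5 to 16.8 against 16.2 to 16.7. Medians of choroid plexus, leukocyte and vascular miRNAs were 0.25, -0.10 and 0.11. Without the array of mouse 197 the difference of miR-298-5p was -0.79 and that of miR-296-5p was -0.58.

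In the soleus the scaled signal of miR-296-5p was higher in high-active mice. Scaled within this tissue it was at 5.47, 5.15, 5.57 and 5.69 in high-active mice 223, 224, 225 and 227 and at 4.60 in both low-active mice, which were at the floor although the probe was well above background there. In this tissue 1.48% of 337 miRNAs passed the limma test. The difference was 0.87, and again this is the value that chose the pair. Within slide 2 it was 0.82, and within slide 1 it was 0.97. The raw intensities did not separate the strains: they were 28.2, 38.5, 42.7 and 42.8 units in high-active mice 223, 224, 225 and 227, and 28.7 and 34.9 in low-active mice 194 and 195. The 75th percentile over probes detected on all 19 arrays was 1776 and 1786 units on the low-active arrays and 856 to 1440 on the high-active arrays, and without scaling the difference was 0.25. Without scaling the median of all miRNAs stood at -0.68, so that relative to the median miR-296-5p was higher by 0.93, beside 0.89 with scaling. The dimmer of the 2 miR-296-5p probes, A_54_P2422, gave 0.35 in the soleus, against -0.53 in the nucleus accumbens and 0.28 in the EDL. On the low-active soleus arrays this probe, at 18.9 and 26.6 units before scaling, was not well above background. The brighter probe was already at the floor on both, so the value of 0.35 is limited by the floor.

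The EDL contrast had no part in the choice, and miR-296-5p did not pass the test there. Scaled within this tissue it was at 5.03 and 5.53 in high-active mice 225 and 227, and at 4.72, 5.47, 5.06 and 4.63 in low-active mice 194, 195, 196 and 197. The groups overlapped, and the difference of 0.31 had a 95% interval of -0.41 to 1.02 (adjusted p = 0.831 by limma). It rested on few arrays, being 0.03 without high-active mouse 227 and 0.55 without high-active mouse 225. Without low-active mouse 197 it was 0.20, and without low-active mouse 195 it was 0.31. In this tissue 0.31% of 323 miRNAs passed. The other 3 arms were not well above background on any EDL array and were not tested.

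**Figure D3:**
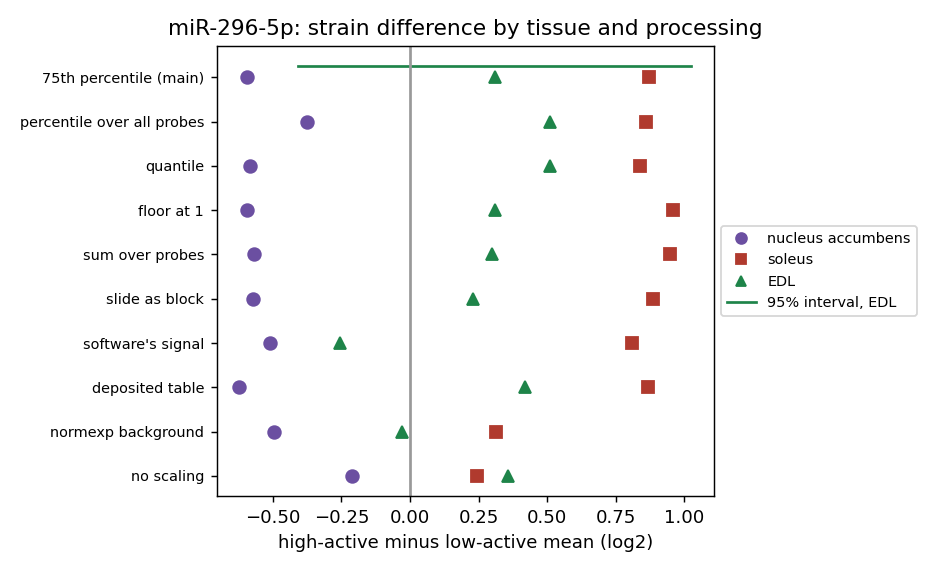
Difference of miR-296-5p between high-active and low-active means (horizontal axis, log2) in each tissue under 10 ways of processing (vertical axis), with the 95% interval of the EDL under the main one. Values stayed below 0 in the nucleus accumbens and above 0 in the soleus under all 10, and the soleus value fell from 0.87 to 0.25 without scaling. EDL values lie on both sides of 0.

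For miR-298-5p the signal that the scanner software gives per miRNA was far above that of its own probes. On 6 nucleus accumbens arrays the software marked miR-298-5p as detected and gave it 132 to 214 units, although the totals of its own 4 probes summed to 6.28 to 13.7. On those arrays the signal exceeded the total of miR-296-5p by 4.52 to 22.8 units. On the array of high-active mouse 225, for example, it was 149.7, the miR-296-5p total was 145.1 and the brightest miR-298-5p probe had a total of 4.52. The per-miRNA signal of miR-296-5p matched the sum of its own probes on every array except that of mouse 195 in the EDL, where it was 45.5 against a sum of 14.8. For this reason values here come from the spots.

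**Figure D4:**
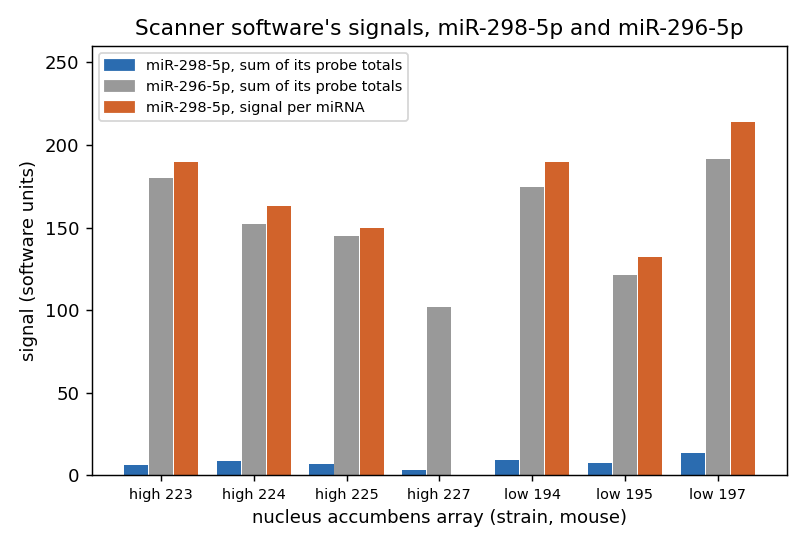
Signals of the scanner software (vertical axis, software units) on the 7 nucleus accumbens arrays. The bars are the sum of probe totals of miR-298-5p, the sum of probe totals of miR-296-5p and the deposited signal per miRNA of miR-298-5p. On 6 arrays the last is 132 to 214 units, above the miR-296-5p total. On the array of mouse 227 it is 0.1, which marks a miRNA not detected.

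The 3 miRNAs whose pattern over the 19 arrays was most like that of miR-296-5p, out of 292 detected on at least 10 arrays, were miR-328-3p, miR-379-5p and miR-125a-5p, at Pearson correlations of 0.98, 0.97 and 0.97. The points share the scaling and fall into brain and muscle. Within the nucleus accumbens the correlations were 0.69, 0.69 and 0.23, and within muscle 0.83, 0.64 and 0.76. miR-328-3p, like miR-298 a known repressor of Bace1, was higher in the nucleus accumbens than in the soleus by 1.85 (adjusted p = 6.20e-11) and than in the EDL by 1.86 (adjusted p = 6.56e-11). miR-379-5p, of the imprinted Dlk1-Dio3 cluster, was higher by 2.84 and 2.43, and miR-125a-5p, a relative of lin-4, by 2.26 and 2.36.

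miRNAs of other imprinted loci did not share 1 direction between tissues. Of a list of 8 arms 7 are on the array and 5 were tested. Against the soleus 2 were higher in the nucleus accumbens, 2 were lower and 1 did not pass, with a list median of -0.26 beside 0.22 over all 477 miRNAs. Against the EDL 2 were higher, 2 were lower and 1 did not pass, with a median of 0.01 beside 0.21. The 4 of 5 that passed are close to the 80.5% and 77.1% of all miRNAs. Of the 5, miR-335-3p, miR-483-3p and miR-675-3p entered the test only through the tissue or tissues where they are high. Nothing is read from their calls. The higher ones were both arms of miR-335, from an intron of Mest. miR-335-5p was higher by 2.98 against the soleus (adjusted p = 1.98e-12) and by 2.99 against the EDL, and miR-335-3p, like miR-298-5p, was well above background on no muscle array, and unlike it on all 7 of the nucleus accumbens, through which alone it entered the test. miR-483-5p, from an intron of Igf2, was lower in the nucleus accumbens, with differences of -2.12 and -1.56. It was well above background on 1 of 4 high-active and 2 of 3 low-active arrays there, and miR-483-3p on 1 of 4 and 0 of 3. All 4 high-active arrays there were at the floor for both arms, so the floor limits the sizes of their differences. For miR-483-3p the floored difference from the EDL was -0.76, given as a description since it entered the test through the muscles alone. miR-675-3p, cut from the H19 RNA, was well above background in the soleus alone, on 3 of 4 high-active and 2 of 2 low-active arrays.

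Between strains no arm of that list passed limma in any tissue, of 3 tested in the nucleus accumbens, 4 in the soleus and 3 in the EDL. Over all miRNAs 6.22%, 1.48% and 0.31% passed there. At an unadjusted p under 0.05 there were 0, 1 and 0 arms, beside 19.2%, 17.2% and 7.12% of all miRNAs. The 1 was miR-675-3p in the soleus, higher in high-active mice by 0.68 (adjusted p = 0.122). Its low-active mean of 4.61 was near the soleus floor of 4.60, so the floor may limit this difference. Medians of the list were -0.26, 0.01 and -0.14, beside -0.10, -0.02 and 0.03 over all miRNAs tested in those tissues.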

How the data were processed

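The deposited scanner files hold spot intensity values that the authors' software, Agilent Feature Extraction 10.7.1.1, had background-subtracted, other flags (0 or 1) deposited per spot, and a signal per miRNA. The authors chose samples by RNA quality and left out arrays of uneven signal. Outlier spots were dropped, spots of a probe were averaged, and a probe with more than 0.5 of its spots well above background counted as detected. Arrays were scaled to the 75th percentile over probes detected on all arrays (328 over 19 arrays; 594, 456 and 417 within the nucleus accumbens, soleus and EDL), floored at the median lowest detected signal (21.2, 24.3, 24.2 and 18.7 units) and taken to log2, and a miRNA took its brightest probe. Scaling assumes that most common probes keep their level, so it can shift dim probes. miRNAs detected on at least 3, 2 and 2 arrays of the 3 tissues, or 2 of 19, were tested with limma 3.58.1 in R 4.3.3 (Benjamini-Hochberg), with the mouse numbers of the labels as a random block between tissues (correlation 0.094). The table deposited for the series holds log2 values of the authors. In each tissue the median of each of its 600, 1157 and 600 valued entries (soleus, EDL, nucleus accumbens) is 0, so it is centred per miRNA within a tissue, and its columns can be compared only there. Differences of the members and counts of miRNAs past the threshold were recomputed under other scalings, backgrounds, floors, filters, probe summaries and blocks, and without each array. Normexp used median spot signals. Named miRNAs are the 4 arms, the 3 most like an arm detected on at least 10 arrays, and lists of imprinted and cell marker miRNAs. Members and lists were chosen with earlier results of these data known. Arrays are separate mice within a group.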

Additional observations from a re-analysis of the deposited data

Results flagged for a closer look

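On the scale common to all tissues, miR-298-5p of the high-active nucleus accumbens was at 4.72 on the array of mouse 224, apart from the other 3 arrays. Those were all tied at the floor of 4.41, which sets the gap, and on the scale of the nucleus accumbens alone the array of mouse 224 did not stand apart. miR-296-5p differed by -0.59 between high-active and low-active mice in the nucleus accumbens and by 0.87 in the soleus. On the scaled signal the arrays overlapped in neither tissue, with both low-active soleus arrays at the floor. Raw intensities overlapped in both tissues. How many of all miRNAs had no overlap on the scaled signal was not counted, so nothing is read from its absence in miR-296-5p. The difference between the tissues was not tested, because both values chose the pair. The 3 miRNAs most like miR-296-5p had the same signs in the nucleus accumbens and the soleus. miR-328-3p was at -0.32 and 0.72, miR-379-5p at -0.17 and 0.34, and miR-125a-5p at -0.10 and 0.40. They were picked for likeness over these same arrays, so these values are a description.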

How the results depend on the processing

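The higher miR-296-5p in the nucleus accumbens kept its direction under all 32 alternatives against the soleus (1.19 to 3.44, the lowest with normexp background). Against the EDL it did so under all 32 as well (1.02 to 2.87). Its call held in every alternative that used both strains. The fits within 1 strain, of which low-active mice gave the highest values, are a description with no test. Without the replicate block the values were 2.66 and 2.39, and with mouse as a fixed replicate block 2.70 and 2.45. The block changed no call of miR-296-5p. In the EDL miR-296-5p passed under none of 16 alternatives (-0.26 to 0.55; adjusted p from 0.486 to 1.00), and 2 of them were below 0, the software's signal at -0.26 and normexp at -0.03. Between the muscles it passed under quantile normalization alone (-0.37). The floored log2 difference of miR-298-5p entered these fits through the nucleus accumbens alone, so no call is read from it. It was 0.56 against the soleus and 0.57 against the EDL in the main fit. With normexp background it was 0.12 and 0.019, and in high-active mice alone 0.079 and 0.072. The cause of these lower values was not tested.

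The strain differences moved by more than 1 SD as follows. In the nucleus accumbens miR-296-5p was at -0.37 with scaling over all probes and -0.21 with none, and miR-298-5p at -0.66 with no scaling, -0.38 with normexp, -1.25 with a floor at 1, -1.69 with the software's signal and -2.46 in the deposited table, where the array of mouse 227 stands at -5.89. In the soleus miR-296-5p was at 0.25 with no scaling and 0.31 with normexp. Relative to the median of all miRNAs, the 4 scalings gave miR-296-5p -0.54 to -0.46 in the nucleus accumbens and 0.68 to 0.93 in the soleus. Without each array in turn, miR-296-5p ranged from -0.42 to -0.12 between the muscles and from 0.03 to 0.55 between strains in the EDL. It ranged from -0.69 to -0.48 and miR-298-5p from -1.19 to -0.79 in the nucleus accumbens, and miR-296-5p from 0.67 to 0.89 in the soleus.

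Counts of miRNAs past the threshold ranged from 4 to 30 between strains in the nucleus accumbens, where the main fit here gave 24. They ranged from 0 to 51 in the soleus (5 in the main fit) and from 0 to 9 in the EDL (1 in the main fit). Between the muscles they ranged from 33 to 129 (83 in the main fit). The deposited table could not give tissue comparisons. The floor limits what can be seen of miR-298-5p, which was at it on 15 of 19 arrays.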
